A study of Mus musculus with 8 samples.

Results

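The 7 genes Cxcr5, Cxcr4, Ccr7, Gpr183, S1pr1, S1pr2 and S1pr4 encode G protein-coupled receptors that place T cells in the B cell follicle, the T zone or the circulation. They were taken by name from the 24421 genes of the deposited count table. Their mRNA was sequenced in follicular regulatory T (TFR) cells of the mouse spleen. There were 4 wild-type (WT) libraries and 4 of the genotype Blimp1-flox Foxp3-cre, named Blimp1-flox below. Every mouse, WT included, had been given peanut with cholera toxin, an adjuvant, by mouth 2 times, and spleens were taken 36 days afterwards. CD4+ T cells were enriched with a kit and the Foxp3+YFP+ CXCR5+ PD1+ fraction was sorted, so CXCR5 protein was itself a sorting criterion. Foxp3-cre acts in cells that express Foxp3, the factor that defines regulatory T cells. Age, sex, the number of floxed alleles and whether WT mice carried Foxp3-cre are not given in the sources used here. Whether each library stood for its own mouse was not given either, so the p-values measure only how these libraries vary, which may be technical.

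TFR cells are Foxp3-expressing T cells that enter B cell follicles and restrain germinal centre responses. CXCR5 draws cells towards CXCL13 in follicles, and CCR7 draws them towards CCL19 and CCL21 in the T zone. GPR183 (EBI2) responds to oxysterols and guides cells to follicle borders, and CXCR4 responds to CXCL12. S1PR1 senses sphingosine-1-phosphate and lets lymphocytes leave tissue for blood or lymph, whereas S1PR2 couples to G alpha 13 and holds cells in germinal centres. S1PR4 is another receptor for the same lipid, found on lymphocytes. Blimp1 is a transcriptional repressor encoded by Prdm1.

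None of the 7 receptors differed between genotypes past the threshold, against 0.501% of all 12363 tested genes. Genotypes were compared by edgeR's quasi-likelihood F test with Benjamini-Hochberg adjustment over all tested genes, with 0.05 as the limit for a call. At an unadjusted p under 0.05, 1 receptor passed, Ccr7, against 16.2% of all tested genes. DESeq2 and limma-voom with quality weights also called 0 receptors, where 3.66% and 4.0% of all genes were called. At an unadjusted p under 0.05 they had 1 and 2 receptors, beside 17.2% and 23.8% of all genes. In the edgeR fit 6 receptors had a positive log2 fold change (Blimp1-flox relative to WT) and Ccr7 a negative one. The median over the 7 was 0.16, beside 0.0012 over all tested genes. No receptor had groups free of overlap, against 8.47% of all tested genes.

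Library totals ranged from 16425538 to 27595939 counts, and each receptor held at least 1071 counts in every library. Prdm1 checked the labels, at 31.8 to 71.0 CPM (counts scaled to library size, with TMM factors) in WT and 7.53 to 16.6 CPM in Blimp1-flox. Foxp3 and Pdcd1 mRNA was present in every library, which does not show how pure the sorted cells were. Foxp3 ranged from 72.5 to 105 CPM in WT and from 55.7 to 75.5 CPM in Blimp1-flox. Its log2 fold change was -0.40 ± 0.13 (SE, edgeR adjusted p = 0.176). Pdcd1, which encodes PD1, ranged from 774 to 1477 CPM over all libraries. Principal component 1 of the log2 CPM values held 33.1% of the variance and separated the genotypes. WT libraries lay at -51.8 to -1.77 on it and Blimp1-flox libraries at 9.73 to 30.9. Within this split WT 4 stood apart, at -51.8, and Blimp1-flox 3 stood apart on the next component, at -50.8. WT 4 also held the most B cell transcripts. The summed level of 14 B cell markers was 265, 300.0, 405 and 956 CPM in WT 1 to 4 and 217 to 289 CPM in Blimp1-flox, of which 167 to 240 CPM was Cd22 in every library. Over the 70 assignments of libraries, an exact permutation test (two-sided) of the summed B cell level gave p = 0.114 (n = 4 and 4). Adjusted over 9 marker lists, the permutation p was 0.257, and neither reached the threshold. The smallest p of this test is 0.0286, so 1 list alone could not pass after adjustment over 9. The sum also holds Cd22, the largest marker in every library, so it does not show equal B cell RNA. Of the 14 markers, 13 had a negative log2 fold change (median over the 14 -3.53), none with an edgeR call. By the median log2 CPM of the list, the difference was -3.20 (exact two-sided permutation p = 0.0286, unadjusted, n = 4 and 4). The CD8 and NK list reached the same permutation p by its median, with a difference of -1.61, though Cd8a held at most 0.351 CPM. By the sums, follicular T and pancreas acinar markers, both higher in Blimp1-flox, had a smaller permutation p than B cell markers (0.0571 each, 0.257 adjusted). B cells carry several of these receptors as well. In bulk libraries a different share of cells and a different RNA amount per cell cannot be told apart.

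All 7 genes lie on the minus strand in mm10. Cxcr5 spans chromosome 9 from 44511787 to 44526421 and Cxcr4 chromosome 1 from 128588199 to 128592299. Ccr7 spans chromosome 11 from 99144199 to 99155077 and Gpr183 chromosome 14 from 121952331 to 121965193. S1pr1 spans chromosome 3 from 115710433 to 115715055, S1pr2 chromosome 9 from 20965952 to 20976793 and S1pr4 chromosome 10 from 81497745 to 81500137. No exon of these genes overlapped an exon of another gene in the deposited gene models. In GENCODE M21 an exon of Cxcr5 overlaps Bcl9l on the opposite strand, and since the strand setting of the counting was not given, reads there cannot be told apart. Bcl9l held 12.1 to 21.0 CPM, far under Cxcr5.

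RefSeq promoter sequences (GRCm38.p6) matched 4 of the 7 receptors, Cxcr4, S1pr2, S1pr4 and Gpr183. Shown are the 250 bases before the start of Cxcr4 and S1pr2, whose mRNA was lowest in the same library, WT 4, and of Gpr183, whose mRNA was highest there. All are on the minus strand, 5′ to 3′. Capitals mark GAAAG, the core of the Blimp1 recognition motif, or its reverse complement CTTTC.
Cxcr4, chr1:128592300-128592549: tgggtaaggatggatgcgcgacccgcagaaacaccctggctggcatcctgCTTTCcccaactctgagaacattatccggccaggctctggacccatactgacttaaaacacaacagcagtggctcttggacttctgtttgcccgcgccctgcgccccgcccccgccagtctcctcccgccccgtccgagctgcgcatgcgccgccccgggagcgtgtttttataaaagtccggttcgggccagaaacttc
S1pr2, chr9:20976794-20977043: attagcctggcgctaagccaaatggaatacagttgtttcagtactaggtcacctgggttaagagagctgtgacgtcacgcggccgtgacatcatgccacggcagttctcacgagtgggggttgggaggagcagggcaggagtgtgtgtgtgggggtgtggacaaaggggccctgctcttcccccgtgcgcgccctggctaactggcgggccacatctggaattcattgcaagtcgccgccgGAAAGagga
Gpr183, chr14:121965194-121965443: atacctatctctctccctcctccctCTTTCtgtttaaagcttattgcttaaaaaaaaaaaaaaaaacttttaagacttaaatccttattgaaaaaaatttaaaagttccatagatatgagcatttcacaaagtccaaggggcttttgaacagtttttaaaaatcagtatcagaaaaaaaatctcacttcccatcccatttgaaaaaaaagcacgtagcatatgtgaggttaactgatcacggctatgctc
Each of the 3 windows, and that of S1pr4, held 1 match to GAAAG on either strand, as did 51.5% of 32851 RefSeq promoter windows of 250 bases with at least 1 match. The match began 9 bases before the start in S1pr2, 200 in Cxcr4 and 225 in Gpr183. The longer form AGNGAAAG, which contains GAAAG, had 0 matches on either strand in the 4 windows and was present in 7.30% of all windows. A match in letters is a description and not a binding site.

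Compared per kilobase of exon, Cxcr5 was the most abundant of the 7 transcripts in every library, at 149 to 217 CPM per kb with a mean of 186 ± 19.6 (SD over 8 libraries). Its range did not overlap that of any other receptor. The cells had been sorted on CXCR5 protein, so the place of Cxcr5 in this order is not independent of the gate. Gpr183 followed at 94.0 ± 20.5 CPM per kb, then Cxcr4 at 80.6 ± 20.9 and Ccr7 at 58.1 ± 21.4. S1pr1 was at 42.9 ± 8.87, S1pr2 at 34.6 ± 8.39 and S1pr4 at 23.5 ± 2.52 CPM per kb (SD over 8 libraries for each). Below Cxcr5, the ranges of all neighbours in this order overlapped. Gpr183 exceeded Cxcr4 in 6 of 8 libraries, Cxcr4 exceeded Ccr7 in 7, and Ccr7 exceeded S1pr1 in 5. S1pr1 exceeded S1pr2 in 5 of 8 libraries and S1pr2 exceeded S1pr4 in 7. These levels are a description without a test, and TPM gave the same order of means.

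**Figure D1:**
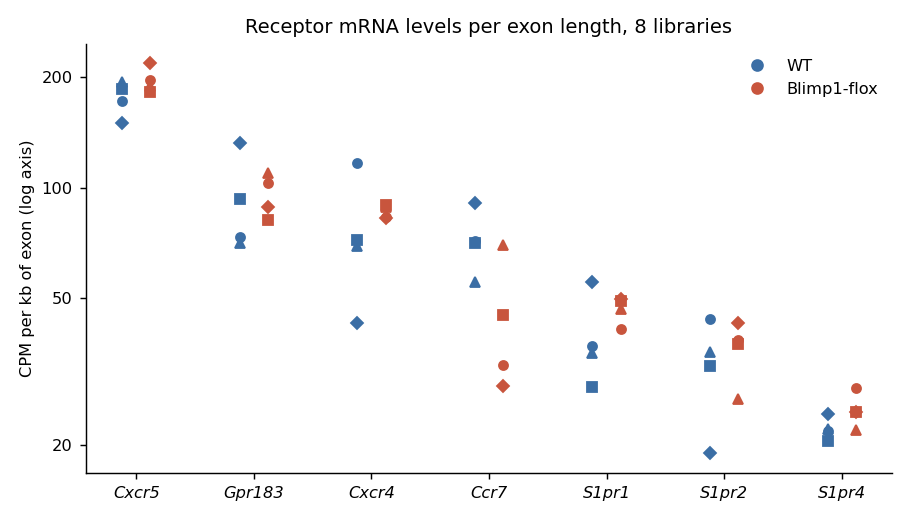
Level of each receptor transcript in CPM per kb of exon (log axis) in 8 TFR libraries, blue for WT and red for Blimp1-flox, with 1 point per library. Cxcr5 sits between 149 and 217, above every point of the other receptors, and the lower receptors overlap their neighbours.

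Ccr7, the T zone receptor, had the largest difference of the 7 between genotypes. It was at 141, 140, 109 and 180 CPM in WT 1 to 4 and at 65.1, 88.9, 138 and 57.1 CPM in Blimp1-flox 1 to 4. Blimp1-flox 1, 2 and 4 lay below all WT libraries, while Blimp1-flox 3 lay among them. The means were 142 ± 28.8 and 87.2 ± 36.2 CPM (SD, n = 4 each), and the log2 fold change was -0.71 ± 0.27 (SE; edgeR adjusted p = 0.248). Without Blimp1-flox 3 the value was -1.02 ± 0.18 (SE; edgeR adjusted p = 0.0320), past the threshold, as were 0.751% of all genes in that fit. Without WT 4 it was -0.57 ± 0.27 (SE; edgeR adjusted p = 0.408), where 0.616% of all genes passed. Without both libraries it was -0.89 ± 0.16 (SE; edgeR adjusted p = 0.0218), where 1.27% of all genes passed. All 22 alternatives gave a negative log2 fold change for Ccr7, from -1.04 to -0.39, and 4 of them a call. Calls came without Blimp1-flox 3, without it and WT 4, with a term for pancreas transcripts, and within the 4 libraries low in them. Of these fits, only the one with the term kept Blimp1-flox 3, which was among the libraries high in pancreas transcripts. No fit of all 8 libraries without an added term called Ccr7. The alternatives reuse the same libraries and are not independent tests.

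The libraries also differed in pancreas transcripts, and Ccr7 was fitted with a division by them as a term and within its classes. Whether pancreas transcripts bear on the Ccr7 values was not tested. Cela1 and Prss2 were higher in every Blimp1-flox library than in any WT library and are left out of the sum below. The acinar transcripts other than Cela1 and Prss2 summed to 31.8 and 18.8 CPM in WT 2 and 4 and to 44.5 and 41.2 CPM in Blimp1-flox 2 and 3, against 0.242 to 6.08 CPM in the other 4 libraries. With that division as a term in the model the log2 fold change of Ccr7 was -0.76 ± 0.17 (SE; edgeR adjusted p = 0.0454), where 3.16% of all genes passed. With Blimp1-flox 1, at 6.08 CPM, placed among the high libraries it was -0.86 ± 0.23 (SE; edgeR adjusted p = 0.0783), where 2.77% of all genes passed. The fits within each class, 2 WT against 2 Blimp1-flox libraries, were chosen after seeing the data. Within the 4 low libraries Ccr7 had a value of -1.04 ± 0.14 (SE; edgeR adjusted p = 0.0019), where 2.51% of all genes passed. That class holds Blimp1-flox 1 and 4, the Blimp1-flox libraries lowest in Ccr7 (65.1 and 57.1 CPM). Within the 4 high libraries the Ccr7 value was -0.50 ± 0.22 (SE; edgeR adjusted p = 0.519), where 0 genes (0.00%) passed and 9.95% had an unadjusted p under 0.05. The difference between these values was not tested.

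**Figure D2:**
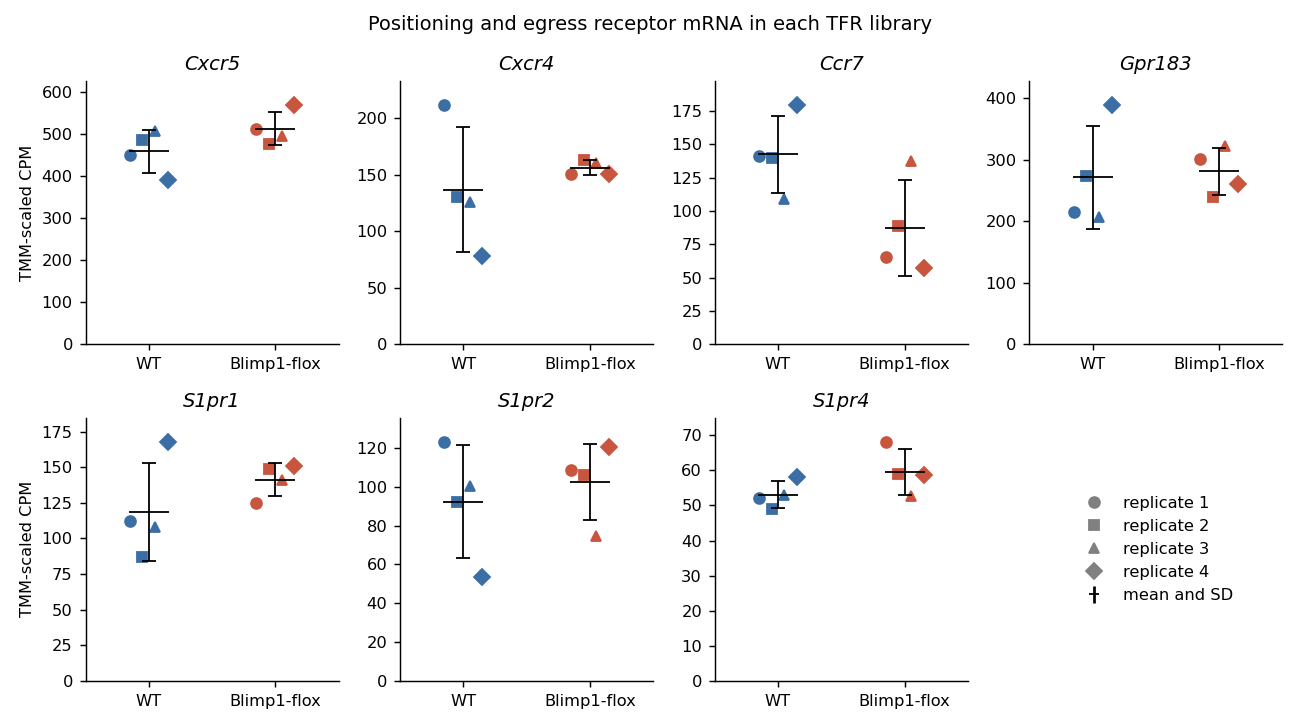
TMM-scaled CPM of each receptor (1 panel each, axis from 0) in the 4 WT and 4 Blimp1-flox libraries, with marker shape for the replicate and a bar for mean and SD. Groups overlap in every panel. The Ccr7 points of 3 Blimp1-flox libraries, at 57.1 to 88.9, lie under all WT points.

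Cxcr5, the follicle receptor, was at 449, 486, 506 and 391 CPM in WT 1 to 4, against 511, 475, 494 and 568 CPM in the Blimp1-flox libraries. The groups overlapped, with WT 4 lowest and Blimp1-flox 4 highest. The means were 458 ± 50.7 and 512 ± 40.1 CPM (SD, n = 4 each), with a log2 fold change (± SE) of 0.16 ± 0.10 (edgeR adjusted p = 0.450). Without WT 4 it was 0.093 ± 0.095 (SE). Since CXCR5 protein was in the sorting gate, cells with little CXCR5 were not sampled.

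Cxcr4, the receptor of CXCL12, was at 212, 130, 126 and 77.9 CPM in WT 1 to 4, against 151, 163, 160 and 150.3 CPM in the Blimp1-flox libraries. The WT libraries spread on both sides of the Blimp1-flox libraries, which lay close together. The SD was 55.4 CPM in WT and 6.61 CPM in Blimp1-flox (n = 4 each). The log2 fold change was 0.19 ± 0.24 (SE; edgeR adjusted p = 0.729), and without WT 4 it was -5.6e-04 ± 0.16 (SE; edgeR adjusted p = 0.999). Without WT 1, the highest library, it was 0.49 ± 0.15 (SE; edgeR adjusted p = 0.131).

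Gpr183, the oxysterol receptor, was at 216, 273, 208 and 389 CPM in WT 1 to 4, against 302, 240, 323 and 260 CPM in the Blimp1-flox libraries. WT 4 was highest and the other WT libraries spread over the lower part of the range. The log2 fold change was 0.051 ± 0.18 (SE; edgeR adjusted p = 0.920), the smallest of the 7. Without WT 4 it was 0.28 ± 0.13 (SE; edgeR adjusted p = 0.382), and without WT 1, WT 3 or Blimp1-flox 3 its sign turned, with values of -0.062 to -0.022.

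S1pr1, the egress receptor, was at 112, 86.9, 108 and 168 CPM in WT 1 to 4, against 125, 149, 141 and 151 CPM in the Blimp1-flox libraries. All 4 Blimp1-flox libraries lay above WT 1, 2 and 3 and below WT 4. The means were 119 ± 34.6 and 141 ± 11.9 CPM (SD, n = 4 each), with a log2 fold change (± SE) of 0.25 ± 0.17 (edgeR adjusted p = 0.475). Without WT 4 the groups did not overlap, as in 11.8% of all tested genes. The log2 fold change was then 0.47 ± 0.11 (SE; edgeR adjusted p = 0.0979), which did not pass. Without WT 2, the lowest library, it was 0.13 ± 0.15 (SE). All 22 alternatives gave a positive value, from 0.13 to 0.82, and none a call (adjusted p from 0.0612 to 0.878).

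S1pr2, the receptor of germinal centre confinement, was at 123, 92.0, 101 and 53.3 CPM in WT 1 to 4, against 109, 106, 74.8 and 121 CPM in the Blimp1-flox libraries. The lowest values were those of WT 4 and Blimp1-flox 3, and the other 6 libraries lay between 92.0 and 123 CPM. The log2 fold change was 0.15 ± 0.23 (SE; edgeR adjusted p = 0.779), and -0.040 ± 0.15 without WT 4 (SE; edgeR adjusted p = 0.931). It was 0.32 ± 0.22 without WT 1, 0.28 ± 0.22 without Blimp1-flox 3 and 0.064 ± 0.25 without Blimp1-flox 4 (SE for each). S1pr4 was at 52.1, 48.997, 52.9 and 58.2 CPM in WT 1 to 4, against 68.2, 58.9, 52.6 and 58.6 CPM in the Blimp1-flox libraries. Its groups overlapped, with Blimp1-flox 1 highest, and the log2 fold change was 0.17 ± 0.11 (SE; edgeR adjusted p = 0.456). Without Blimp1-flox 1 it was 0.095 ± 0.10 (SE).

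**Figure D3:**
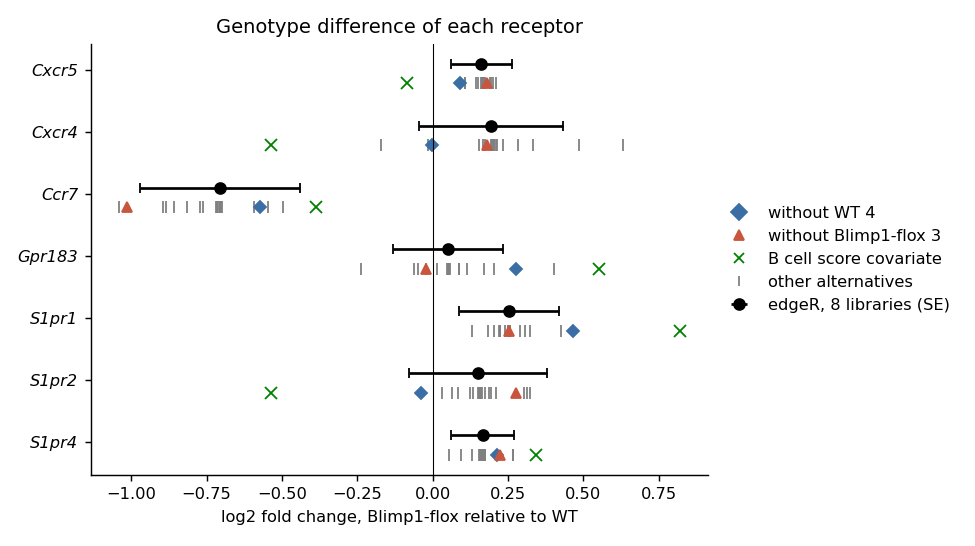
Log2 fold change of each receptor, Blimp1-flox relative to WT, with the edgeR value over 8 libraries and its SE in black and the 22 alternatives below it. Ccr7 stays left of 0 in every alternative (-1.04 to -0.39) and S1pr1 right of it (0.13 to 0.82), while Cxcr5, Cxcr4, Gpr183 and S1pr2 have points on both sides.

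WT 4 was the extreme library for 6 of the 7 receptors. Ccr7, Gpr183 and S1pr1 were highest there and Cxcr5, Cxcr4 and S1pr2 lowest, while S1pr4 lay inside the range of the others. WT 4 was also extreme for 39.3% of all tested genes, and Blimp1-flox 1 for 37.6%. Klf2, a transcription factor known to promote S1pr1 expression, was at 148 CPM in WT 4 and 58.4 to 102 CPM in the other libraries. Gna13, which encodes the G alpha 13 subunit used by S1PR2, was at 270 CPM in WT 4 and 505 to 780 CPM elsewhere. Ascl2, a factor known to promote Cxcr5 expression and chosen after its values were seen, was at 10.4 CPM there and 29.3 to 66.2 CPM elsewhere. Of the other pathway genes named below, Rgs1 was highest and Plpp1 lowest in WT 4. Foxo1, Cd69, Adrbk1, Gnai2, Arhgef1 and Ccr6 lay inside the range of the other libraries there. Whether any regulator bears on the receptor levels of WT 4 was not tested. The same library held the highest level of 13 of the 14 B cell markers, and the part of B cell RNA in these values was not tested.

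**Figure D4:**
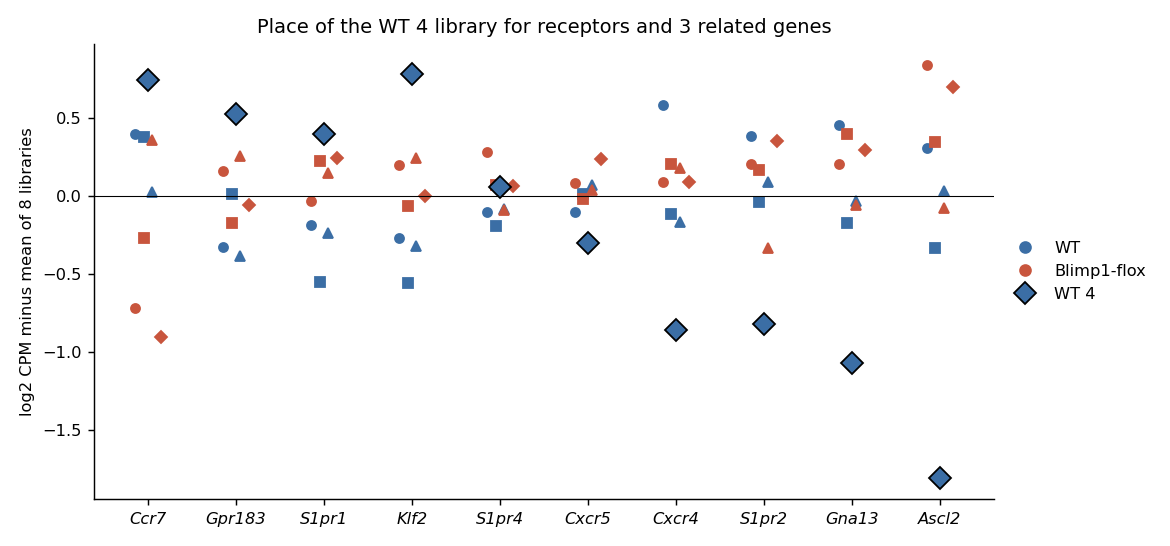
Log2 CPM of each receptor and of Klf2, Gna13 and Ascl2 minus the mean over 8 libraries, with WT 4 as the large outlined diamond. WT 4 lies highest for Ccr7, Gpr183, S1pr1 and Klf2, inside the range for S1pr4, and lowest for Cxcr5, Cxcr4, S1pr2, Gna13 and Ascl2.

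When the mean log2 CPM of the 14 B cell markers entered the model as a score, 0 receptors and 0 genes (0.00%) were called, with 1 receptor and 4.85% of all genes at an unadjusted p under 0.05. S1pr1 then had a log2 fold change (± SE) of 0.82 ± 0.21 (edgeR adjusted p = 0.788) and Gpr183 one of 0.55 ± 0.26 (SE). Cxcr4 and S1pr2 had values of -0.53 ± 0.25 and -0.54 ± 0.27 (SE), opposite in sign to the fit without the score. Ccr7 had -0.39 ± 0.42 (SE), Cxcr5 -0.084 ± 0.16 (SE) and S1pr4 0.34 ± 0.18 (SE). Genotype accounted for 65.1% of the variance of the score, so B cell RNA and genotype cannot be told apart by this fit.

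Ratios between receptors within a library do not depend on library scaling. Of the 21 ratios of levels per kb among the 7, 2 (9.52%) had groups free of overlap. Of single genes tested, 8.47% did, but that is a share of gene levels and not of ratios. The 21 ratios share 7 genes, and no share over ratios of other genes was computed, so nothing is read from the count. Both held Ccr7 and are given as values, singled out after they were seen. The ratio of Ccr7 to S1pr1 was 1.93, 2.46, 1.55 and 1.64 in WT 1 to 4 and 0.802, 0.916, 1.49 and 0.581 in Blimp1-flox 1 to 4. Ccr7 exceeded S1pr1 per kb in all WT libraries and, of the Blimp1-flox libraries, in Blimp1-flox 3. The ratio of Ccr7 to Gpr183 was 0.975, 0.760, 0.784 and 0.688 in WT and 0.321, 0.552, 0.635 and 0.327 in Blimp1-flox. Blimp1-flox 3 lay nearest to WT in both ratios. Cxcr5 to Ccr7 was 1.64 to 3.50 in WT and 2.71 to 7.51 in Blimp1-flox, with overlap. A ratio shows unequal levels and not which of its genes differs.

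**Figure D5:**
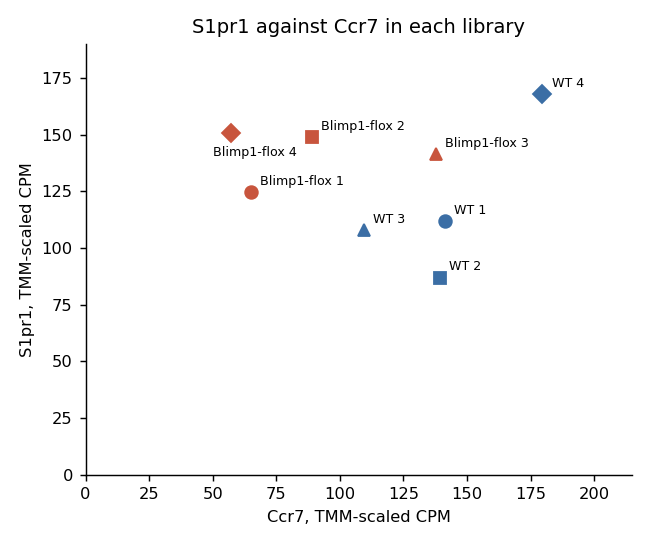
S1pr1 against Ccr7 in TMM-scaled CPM, 1 labelled point per library, blue for WT and red for Blimp1-flox, both axes from 0. Blimp1-flox libraries lie at 125 to 151 CPM of S1pr1, with Blimp1-flox 3 among WT on the Ccr7 axis, and WT 4 is highest on both axes.

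Around the receptors, 92 tested genes of the pathway were taken from 7 lists of ligands and their enzymes, related receptors, regulators, receptor kinases, RGS proteins, G protein subunits and migration machinery. Of these, 1 rose, 0 fell and 91 did not pass, beside 0.501% of all genes called. At an unadjusted p under 0.05 there were 17, beside 16.2% of all genes. The median log2 fold change was 0.025, beside 0.0012 over all genes. That gene was Ccr6, the receptor of CCL20, at 22.6, 33.0, 24.8 and 35.9 CPM in WT 1 to 4, against 110, 47.9, 70.6 and 89.9 CPM in the Blimp1-flox libraries. Every Blimp1-flox library lay above every WT library, and the log2 fold change was 1.45 ± 0.24 (SE; edgeR adjusted p = 0.0334). Leaving out WT 2, WT 3, Blimp1-flox 1 or Blimp1-flox 4, or dropping the low-count filter, ended that call. It was also not called with the replicate block, with the B cell score or within the 4 libraries high in pancreas transcripts, which makes 8 of 23 alternatives without it.

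Among ligands, ligand enzymes and transporters none of 9 tested genes passed. Plpp1 (listed as Ppap2a), a lipid phosphatase that degrades sphingosine-1-phosphate among other lipids, was 8.71 ± 2.66 CPM in WT and 20.8 ± 5.76 CPM in Blimp1-flox (SD, n = 4 each). Its groups did not overlap, and its log2 fold change of 1.26 ± 0.25 (SE) did not pass (edgeR adjusted p = 0.0521). It was called in 11 of 23 alternatives, among them DESeq2, upper-quartile scaling, library totals only, both other filters, the replicate block, the fits without WT 1 or Blimp1-flox 4 and both fits with a pancreas term. Among 10 tested related receptors, 9 had a negative log2 fold change, beside 6165 of all 12363 tested genes. Their median was -0.53, beside 0.0012 over all genes, and only Ccr6, which rose, was called. At an unadjusted p under 0.05 there were 5 of the 10, beside 16.2% of all genes. The part of B cell RNA in these values was not tested.

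Of 12 regulators of receptor level none passed. Klf2 was 86.6 ± 41.2 CPM in WT and 92.1 ± 9.47 CPM in Blimp1-flox (SD, n = 4 each), with a log2 fold change (± SE) of 0.088 ± 0.26 (edgeR adjusted p = 0.901). Foxo1, which promotes Klf2 and Ccr7 expression, had a log2 fold change (± SE) of -0.25 ± 0.13 (edgeR adjusted p = 0.361). Cd69, whose protein binds S1PR1 and removes it from the surface, was at 424, 451, 375 and 389 CPM in WT 1 to 4, against 306, 337, 358 and 336 CPM in the Blimp1-flox libraries. All Blimp1-flox libraries lay below all WT libraries, and the log2 fold change was -0.29 ± 0.091 (SE; edgeR adjusted p = 0.171).

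None of 6 receptor kinases and arrestins, 7 RGS proteins, 14 G protein subunits or 34 genes of migration machinery passed. Adrbk1, which encodes the receptor kinase GRK2, had a log2 fold change of 0.10 ± 0.10 (SE). Rgs1, which dampens chemokine receptor signals, had -0.50 ± 0.17 (SE; edgeR adjusted p = 0.198). Gnai2, the G alpha i subunit used by chemokine receptors, had 0.17 ± 0.10 (SE) and Gna13 0.33 ± 0.26 (SE; edgeR adjusted p = 0.429 and 0.573). Arhgef1, an exchange factor downstream of G alpha 13, was 1661 ± 152 CPM in WT and 1328 ± 159 CPM in Blimp1-flox (SD, n = 4 each). Its groups did not overlap, with a log2 fold change (± SE) of -0.32 ± 0.11 (edgeR adjusted p = 0.185).

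For each receptor the genes of most similar pattern over the 8 libraries were sought among 6208 genes with a mean log2 CPM of at least 5, by Pearson correlation of log2 CPM. They are descriptions, chosen as the highest of many, and the libraries share scaling and genotype. Ccr7 was closest to Dnajc1 (r = 0.98) and Nolc1 (r = 0.98), and without Blimp1-flox 1 and 4, the libraries farthest from its median, r was 0.97 and 0.96. Cxcr5 was closest to Cdc23 (r = 0.98) and Tmem214 (r = 0.95), with 0.89 and 0.73 without WT 4 and Blimp1-flox 4. Cxcr4 was closest to Golph3 (r = 0.98) and Dusp14 (r = 0.97), with 0.78 and 0.93 without WT 1 and 4. Gpr183 was closest to Rcbtb2 and Jtb (r = 0.96 each), with 0.94 and 0.95 without WT 3 and 4. S1pr1 was closest to Gnpda1 (r = 0.91) and Nipsnap1 (r = 0.90), with 0.90 and 0.81 without WT 2 and 4. S1pr2 was closest to Slc39a4 and Natd1 (r = 0.97 each), with 0.77 and 0.86 without WT 4 and Blimp1-flox 3. S1pr4 was closest to Adprm and Farsa (r = 0.95 each), with 0.91 and 0.78 without WT 2 and Blimp1-flox 1. Among the 21 pairs of receptors, the 3 with the largest r in size were S1pr2 and Gpr183 (r = -0.81 over 8 libraries, -0.58 over 7 without WT 4), Cxcr5 and Ccr7 (r = -0.80, -0.76 without WT 4) and Cxcr4 and S1pr2 (r = 0.80, 0.37 without WT 4). Without WT 4 the largest was that of Ccr7 and S1pr4 (r = -0.84, and -0.64 over all 8).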

How the data were processed

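Libraries from sorted TFR cells (4 WT, 4 Blimp1-flox) used a KAPA mRNA Hyperprep kit, per the labels' protocols. The authors deposited 1 table of raw, unnormalized counts with summed exon lengths. STAR 2.5.2b, featureCounts, Subread 1.5.1 and mm10 are named in the submitters' processing notes. Annotation and strand setting: not given in the sources used here.

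Groups and replicate numbers came from the sample titles. filterByExpr of edgeR 4.0.16 (R 4.3.3) kept 12363 genes. Libraries were scaled by TMM (factors 0.976 to 1.02) and tested with robust quasi-likelihood F tests on genotype, checked on simulated data. Each SE is the log2 fold change divided by the root of F. CPM per kb used the deposited lengths, and log2 CPM a prior count of 2. Alternatives used other scalings, DESeq2 1.42.0, limma-voom (limma 3.58.1), other filters (none, or at least 5 CPM in 4 libraries), a replicate block, left-out libraries, and terms for B cell or pancreas transcripts (high above 10 CPM). The fits with Blimp1-flox 1 placed among the libraries high in pancreas transcripts, and those within each class, were chosen after seeing the data. No pair of libraries was counted as 1 sample, since all pairs differed by more than counting noise, which does not show that they came from separate mice.

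The members, gene lists, naming rule and alternatives were chosen with earlier results of these data known. Named were the 7 receptors, Prdm1, 9 fixed pathway genes (1 is not reported here), called pathway genes, and the 2 most similar genes per receptor. Others were chosen after their values were seen: Plpp1, Ascl2 and Bcl9l.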

Additional observations from a re-analysis of the deposited data

How the results depend on the processing

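Across 22 alternatives S1pr1 and S1pr4 kept a positive and Ccr7 a negative log2 fold change, and no receptor other than Ccr7 was called in any. The number of receptors called was 0 to 1 over the 8 fits that left out each library, 1 without WT 4 and Blimp1-flox 3 together, 1 with a term for pancreas transcripts and 1 within the 4 libraries low in them, each time Ccr7. The number of genes called, 62 in the main fit, was 453 with DESeq2, 494 with limma-voom, 20 to 127 over the left-out libraries, 157 without WT 4 and Blimp1-flox 3, and 182 at a threshold of 0.1. It was 0 with a B cell score (599 at an unadjusted p under 0.05), 391 with the pancreas term, 342 with Blimp1-flox 1 moved to the high class, 312 within the low class and 0 within the high class (1248 at an unadjusted p under 0.05). Pathway genes called, 1 in the main fit, numbered 2 with upper-quartile scaling, with library totals only, with the stricter filter and at 0.1. They numbered 6 with DESeq2 and with limma-voom, 0 to 3 over the left-out libraries, 3 without WT 4 and Blimp1-flox 3, and 0 with the B cell score. With the pancreas term they numbered 9, with Blimp1-flox 1 moved 7, within the low class 6 and within the high class 0. The cause of these shifts was not tested.

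Signs turned as follows, none of them with a call. Over the left-out libraries Gpr183 ran from -0.062 to 0.28, Cxcr4 from -5.6e-04 to 0.49 and S1pr2 from -0.040 to 0.32. Gpr183 was -0.020 with Blimp1-flox 1 moved and -0.24 within the high class. Cxcr4 was -0.015 without WT 4 and Blimp1-flox 3, -0.53 with the B cell score and -0.17 within the low class. With the B cell score S1pr2 was -0.54 and Cxcr5 -0.084. By the median log2 CPM of the list in place of the sum, the B cell difference was -3.20 (exact two-sided permutation p = 0.0286, the smallest possible), and the stromal difference turned from -0.68 CPM to 0.69 on the log2 scale.

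With the replicate number as a block, edgeR called 52 genes and 0 receptors, and 1 pathway gene, Plpp1, where the main fit called Ccr6. Same-numbered libraries had correlated deviations of -0.11 to 0.15, and 1 of 4 WT libraries correlated best with its own number, so the numbers were not taken to pair the samples. The receptors had an SE of 0.10 to 0.27 (log2) with 4 libraries a group and at least 1071 counts in every library. Which of spread and depth limits detection was not tested.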
